A study of Solanum lycopersicum with 2 samples.

Results

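The proteinase inhibitor II (PI-II) genes of chromosome 3 form a tandem group in the tomato genome, and 5 of the 34725 gene models in the deposited table were taken as its members by their identifiers, Solyc03g020030, Solyc03g020040, Solyc03g020050, Solyc03g020060 and Solyc03g020080. The table pairs no identifier with a gene name, and 0 of its identifiers matched the RefSeq gene table used for names. That these 5 loci encode PI-II proteins therefore rests on the list of members and could not be checked in the data. The libraries were made from young primary leaf of mature plants of the tomato cultivar Ailsa Craig (AC). One came from SlCycB2-OE plants, meant to overexpress the B-type cyclin gene SlCycB2 and called OE leaf here, and the other from SlCycB2 RNAi plants, meant to silence it and called RNAi leaf. Both carry a manipulation of the same gene in the same cultivar. Wild-type leaf was not analysed here. The sources used here do not give the promoters of the transgenes, the number of lines or the number of plants pooled. SlCycB2 itself could not be checked by name.

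PI-II proteins are small inhibitors of serine proteinases of the trypsin and chymotrypsin type. Tomato leaves make them after wounding or chewing by insects, through the peptide signal systemin and the hormone jasmonate, and the eaten protein slows digestion in the insect gut. Their transcripts are a common marker of the wound response of tomato leaf. The study asked what SlCycB2 does in the multicellular leaf hairs that take part in defence against herbivores, and in reproductive organs.

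Values are RPKM, read numbers divided by the length of the gene model and by the mapped reads, so levels of different genes can be set side by side per length. Since each group holds 1 library, neither a replicate error nor a test can be given. Every statement on a difference describes these 2 libraries, with no measure of how far plants of 1 group vary. In leaf tissue, fewer cells that express a gene and less RNA per cell cannot be told apart. Transcripts above 0 were listed for 23804 gene models in RNAi leaf and for 23901 in OE leaf. Read totals are not given, so the depth of each library is unknown. In the low values, the worth of 1 read in OE leaf was best fitted at 1.02 times that in RNAi leaf.

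The 5 genes fell into a pair with leaf transcript in both libraries and a trio at or near 0. Solyc03g020040 and Solyc03g020030 were well above the median of detected genes, which was 6.19 RPKM in RNAi leaf and 6.99 RPKM in OE leaf, and were within 2-fold between the libraries. Solyc03g020060 and Solyc03g020080 were listed at 0 in RNAi leaf and at a few RPKM or less in OE leaf. Solyc03g020050 was listed at 0 in both. As deposited and with no limit on size, 3 members were higher, 1 was lower and 1 was equal at 0 in OE leaf. Of the 3 higher members, Solyc03g020030 differed by little and 2 were at 0 in RNAi leaf. These signs alone therefore do not show whether the group was shifted.

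Solyc03g020040 had the highest level of the 5 in each library. RNAi leaf had 39.27 RPKM of it and OE leaf 29.99 RPKM. RNAi leaf was thus the higher by a ratio of 1.31, and the log2 difference, OE minus RNAi on the log2(RPKM + 1) scale used throughout, was -0.38. Its level exceeded that of 88.4% of detected genes in RNAi leaf and 83.9% in OE leaf.

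Solyc03g020030, the neighbouring identifier, stood at 22.41 RPKM in RNAi leaf and 23.86 RPKM in OE leaf. These are nearly equal levels, with a log2 difference of 0.09, and that sign turned to a small negative value when ratios were centred on the median of all genes. Its level exceeded that of 80.5% of detected genes in RNAi leaf, and its place in OE leaf was much the same. Between these neighbours, the order of levels was the same in both libraries, but Solyc03g020040 was 1.75 times Solyc03g020030 in RNAi leaf and 1.26 times in OE leaf. Whether these ratios differ by more than plants of 1 group do was not tested.

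Solyc03g020080 was listed at 0 RPKM in RNAi leaf and 2.49 RPKM in OE leaf. Against a library at 0 no fold can be given. On the log2(RPKM + 1) scale the difference was 1.80, a value set by the pseudocount of 1 and not a measured ratio. In OE leaf, 29.4% of detected genes were lower. Solyc03g020060 was listed at 0 RPKM in RNAi leaf and 1.51 RPKM in OE leaf, where 23.1% of detected genes were lower. Its difference on the same scale was 1.33. Both genes were thus listed above 0 in OE leaf alone, and at low levels there.

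Solyc03g020050 was listed at 0 RPKM in both libraries, so no comparison between them could be made for it. The order of levels in OE leaf was Solyc03g020040, Solyc03g020030, Solyc03g020080, Solyc03g020060 and Solyc03g020050, and in RNAi leaf the last 3 were tied at 0. The summed level of the 5 genes was 61.68 RPKM in RNAi leaf and 57.85 RPKM in OE leaf. Solyc03g020040 supplied 63.7% of that sum in RNAi leaf and 51.8% in OE leaf, and the trio supplied 6.91% in OE leaf. The similar sums were made of differences in both directions. OE minus RNAi, Solyc03g020040 differed by -9.28 RPKM, whereas Solyc03g020030, Solyc03g020060 and Solyc03g020080 differed by 1.45, 1.51 and 2.49 RPKM. How multiply mapped reads were handled is not stated. Tandem copies can share reads, so the division of transcript among the 5 is uncertain.

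**Figure D1:**
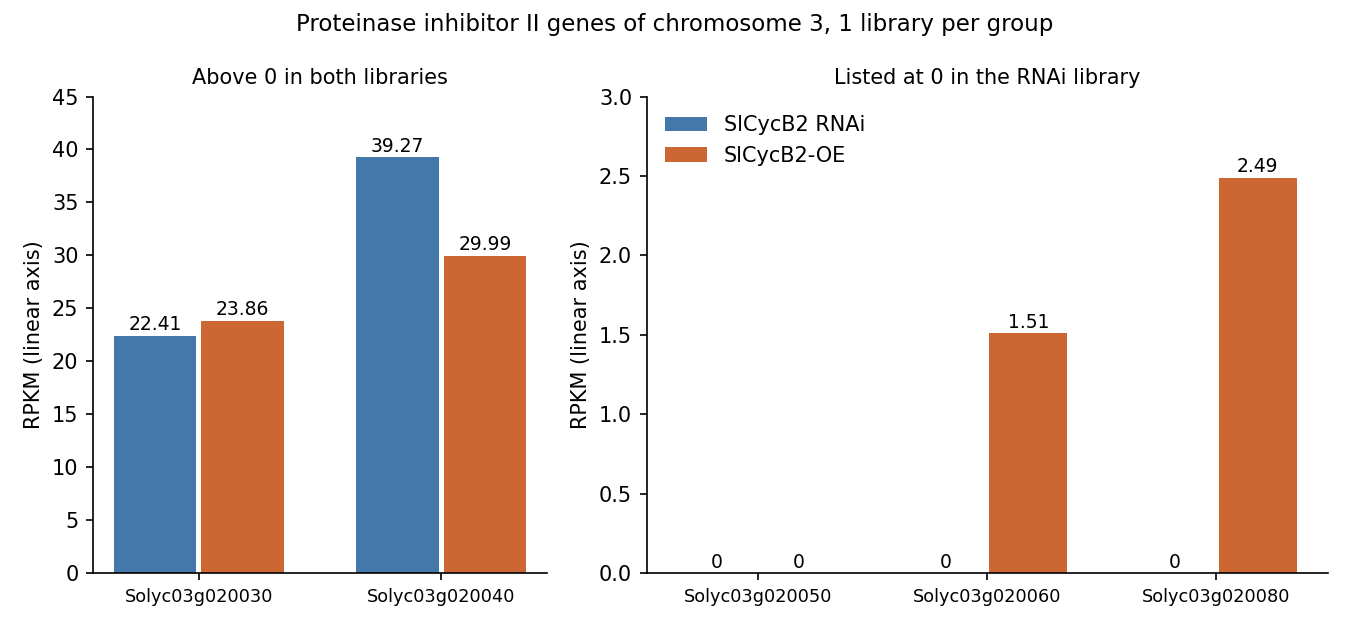
RPKM (vertical axes, linear and of different range) of each of the 5 PI-II genes in the SlCycB2 RNAi and SlCycB2-OE libraries, 1 bar per library with its value and no error bar, as there is 1 library per group. Solyc03g020030 and Solyc03g020040 lie between 22.41 and 39.27 RPKM in both libraries, and Solyc03g020060 and Solyc03g020080 are above 0 in OE leaf alone.

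The question whether OE and RNAi leaf differ in these genes was read against all genes whose mean RPKM reached 1. Of 19466 such genes, OE leaf had 506 at 2-fold or more above RNAi leaf, or 2.6%, and 373 at 2-fold or more below it, or 1.92%. Among the 5 PI-II genes, 3 reached that mean level, of which 1 was at least 2-fold higher (Solyc03g020080) and 0 were lower. Solyc03g020080 passed the level filter through OE leaf alone and so had to differ, and its call is no support for a shift of the group. Without the level filter, 2 of the 5 were at least 2-fold higher and 0 were lower, against 1.77% and 1.39% of 34725 gene models. Those 2, Solyc03g020060 and Solyc03g020080, were at 0 in RNAi leaf, so their calls were set by the pseudocount. With a pseudocount of 5 their log2 differences were 0.38 and 0.58, so these calls are no support for a shift of the group either. The 34725 gene models include those at 0 in both libraries, which could not be called. The median log2 difference of the 3 compared PI-II genes was 0.09, beside 0.13 for all compared genes. After centring on that median, 369 genes were at least 2-fold higher and 482 lower, so the balance of directions among all genes depended on scaling.

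The pair with transcript in both libraries can also be set beside genes of like level. Among the 500 compared genes nearest in mean RPKM to Solyc03g020030, the central 95% of log2 differences ran from -0.57 to 0.77 with a median of 0.14. Its own value of 0.09 lay near the middle, above 39.4% of those genes. For Solyc03g020040 the corresponding range was -0.46 to 0.68 with a median of 0.12. Its value of -0.38 lay toward the lower end and inside the range, above 4.4% of those genes. The spread across genes is not a replicate error and serves here only as a scale.

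**Figure D2:**
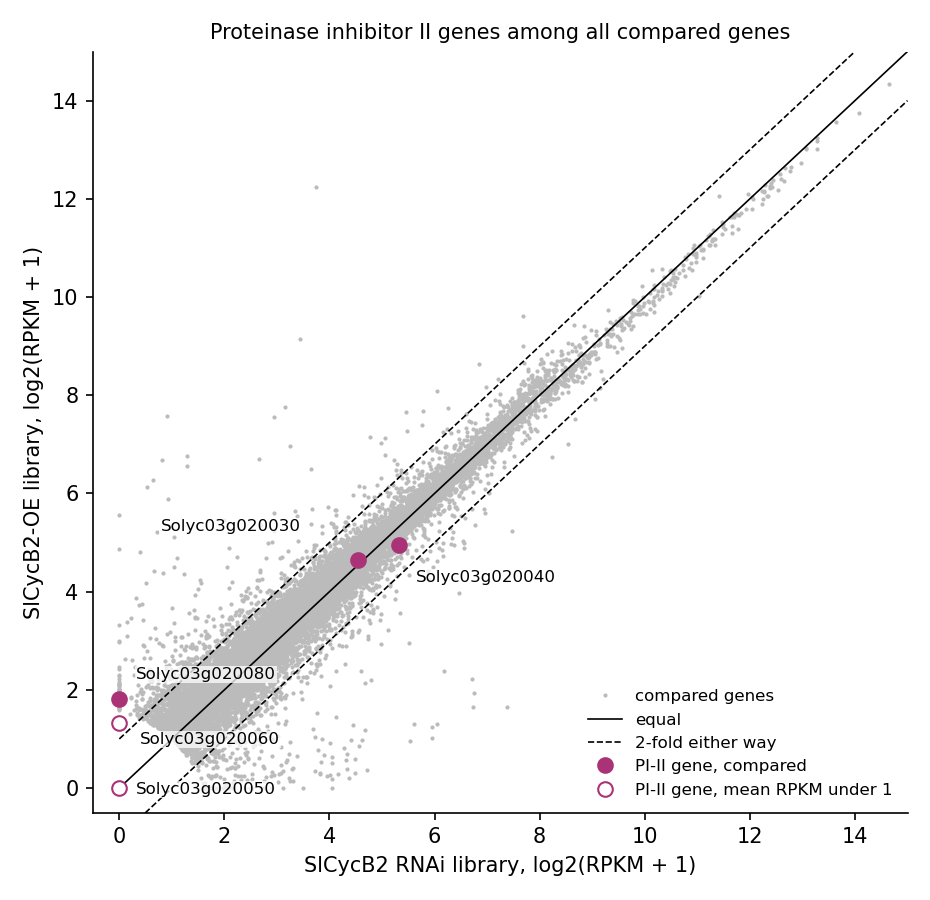
Each grey point is 1 of the 19466 compared genes, placed by log2(RPKM + 1) in the SlCycB2 RNAi library (horizontal) and the SlCycB2-OE library (vertical), with lines at equal levels and at 2-fold either way; filled circles are the 3 PI-II genes compared and open circles the 2 with a mean RPKM under 1. Solyc03g020030 lies near the line of equal levels, Solyc03g020040 slightly under it, and Solyc03g020080 at 0 in RNAi leaf.

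How often a gene above 0 in 1 library was listed at 0 in the other depended on its level. Of genes at 0.01 to 0.1 RPKM in OE leaf, 43.8% were at 0 in RNAi leaf, and the share was far smaller at the levels of Solyc03g020060 and Solyc03g020080. Of 1355 other genes at 2 to 3 RPKM in OE leaf, the range that holds Solyc03g020080, 16 were listed at 0 in RNAi leaf, or 1.18%. Of 833 other genes at 1.5 to 2 RPKM, the range that holds Solyc03g020060, 25 were, or 3%. The reverse pattern was about as frequent, with 1.32% of the genes at 2 to 3 RPKM and 2.21% of those at 1.5 to 2 RPKM in RNAi leaf listed at 0 in OE leaf. In all, 1229 other genes were at 0 in RNAi leaf and above 0 in OE leaf, with a median of 0.23 RPKM. Of these, 60 were at or above the level of Solyc03g020060 and 23 at or above that of Solyc03g020080. Both PI-II genes thus stood in the upper 4.88% and 1.87% of genes with this pattern. These shares and ranks were taken by RPKM alone, with no matching on the length of the gene model. At a given RPKM a shorter gene model rests on fewer reads, so a 0 in the other library is more likely for it. As the number of reads behind 1.51 and 2.49 RPKM is unknown, an absence of transcript in the RNAi leaf cannot be read from the 0.

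**Figure D3:**
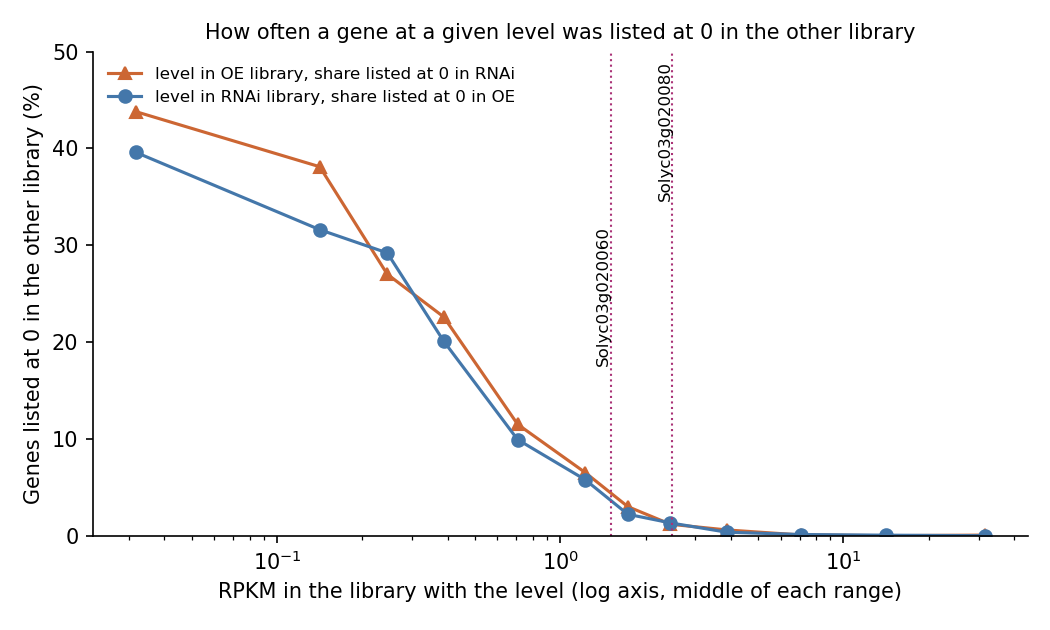
Share of genes listed at 0 in the other library (vertical axis, percent) by RPKM in the library where the level was taken (horizontal, log axis, middle of each range), with dotted lines at the levels in OE leaf of Solyc03g020060 and Solyc03g020080. The share falls from 43.8% in the lowest range to 1.18% at 2 to 3 RPKM for levels in OE leaf, and the curve for RNAi leaf runs close to it.

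Solyc03g020070 is the single identifier of the table that lies between the members without being one of them. It was listed at 0 RPKM in RNAi leaf and 1.35 RPKM in OE leaf, as its neighbours on both sides were at 0 in the former and above 0 in the latter. The next identifier after the members, Solyc03g020090, followed the same pattern at 0 and 0.35 RPKM. The last identifier before the members, Solyc03g020020, stood at 6.29 RPKM in RNAi leaf and 8.14 RPKM in OE leaf.

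Among the 10 nearest identifiers on each side, 9 reached a mean RPKM of 1. Of these, 1 was at least 2-fold higher in OE leaf and 0 were lower, against 2.6% and 1.92% of all compared genes. The log2 differences of the 9 ran from -0.08 to 1.17 with a median of 0.41. The neighbour that was at least 2-fold higher was Solyc03g025140, at 2.27 RPKM in RNAi leaf and 6.36 RPKM in OE leaf. Solyc03g020030 and Solyc03g020040, at 0.09 and -0.38, lay below that median. Of the 20 neighbours, 4 were at 0 in both libraries, 3 were at 0 in RNAi leaf only and 0 were so in OE leaf only. Among the 34725 gene models, leaving out the members, 1229 were at 0 in RNAi leaf only and 1134 in OE leaf only. The 3 neighbours were Solyc03g020090, Solyc03g025100 and Solyc03g025110, at 0.33 to 0.61 RPKM in OE leaf and so under the levels of Solyc03g020060 and Solyc03g020080. A 0 in RNAi leaf was frequent at such levels. It was listed for 22.6% of genes at 0.3 to 0.5 RPKM in OE leaf and 11.5% of those at 0.5 to 1 RPKM, members left out. The identifier numbers jump from Solyc03g020100 to Solyc03g025100, over a distance not known here. All compared neighbours after the members, Solyc03g025140 among them, lie beyond this jump.

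**Figure D4:**
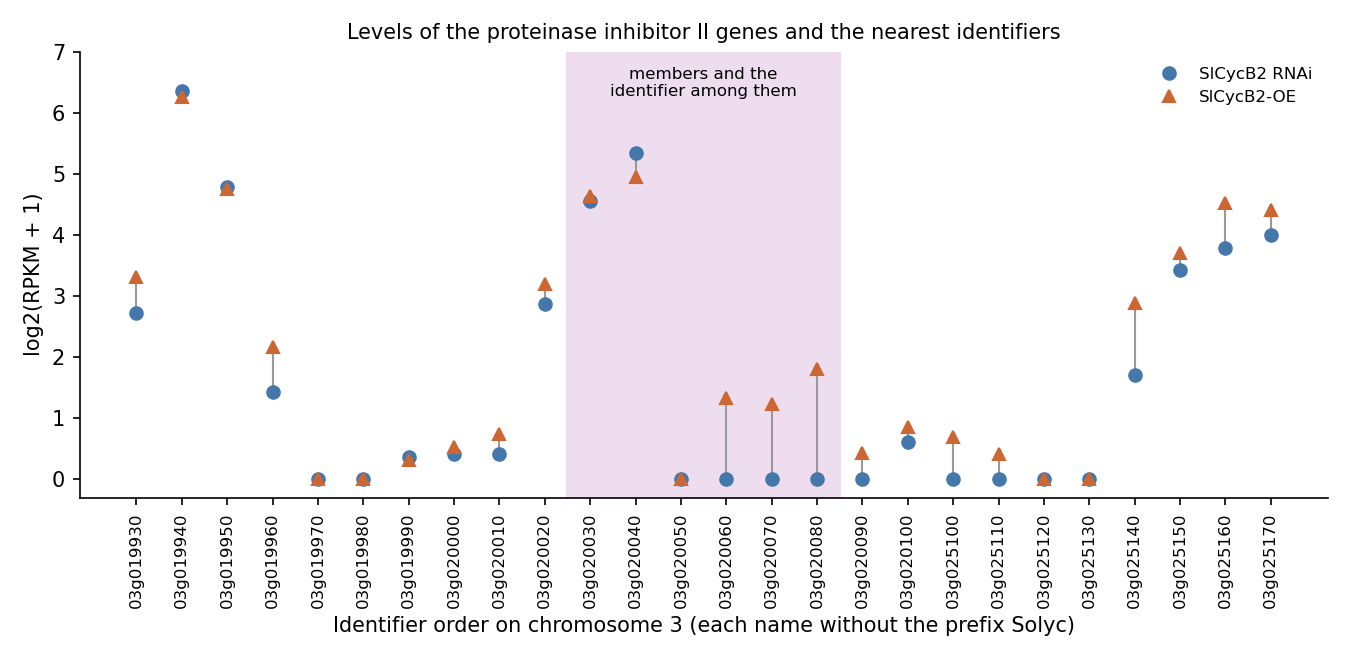
log2(RPKM + 1) in the SlCycB2 RNAi library (circles) and the SlCycB2-OE library (triangles) for the 5 PI-II genes, Solyc03g020070 among them (shaded) and the 10 nearest identifiers on each side, in identifier order, with a thin line joining the values of each identifier. Solyc03g020060, Solyc03g020070, Solyc03g020080 and Solyc03g020090 are at 0 in RNAi leaf and above 0 in OE leaf.

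The genes most like Solyc03g020040, the member with the highest mean level, were sought among the compared genes by distance on the log2(RPKM + 1) scale over the 2 libraries. The nearest was Solyc11g068430, at 39.49 RPKM in RNAi leaf and 29.95 RPKM in OE leaf, a distance of 0.0081. The next was Solyc06g084610, at 39.07 and 29.08 RPKM, a distance of 0.044. In all, 12 compared genes lay within a distance of 0.1. With only 2 libraries such likeness is common and describes the levels alone.

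Wound signalling in tomato leaf also induces other families of proteinase inhibitors and enzymes that spoil the food of insects, through jasmonate and its receptor, which relieve the block set by the JAZ repressors. Lists of such loci were written down by identifier from general knowledge of tomato, and their functions were not checked against an annotation. As earlier results of these data were known when they were written, their counts are no independent evidence of a direction. The list of type I proteinase inhibitors on chromosome 9, another family of wound-inducible serine proteinase inhibitors, had 12 compared loci, of which 11 were at least 2-fold higher in OE leaf and 0 lower, with a median log2 difference of 2.51. Of the 11, 6 were under 1 RPKM in RNAi leaf, so they passed the level filter through OE leaf alone, as Solyc03g020080 did. Its extremes were Solyc09g084490, at 0.76 RPKM in RNAi leaf and 101.28 RPKM in OE leaf, and Solyc09g084460, at 1.33 and 1.86 RPKM. The summed level of that list went from 86.75 RPKM in RNAi leaf to 823.1 RPKM in OE leaf, while the sum of the 5 PI-II genes was 61.68 and 57.85 RPKM. The difference between the families was not tested, as there is 1 library per group.

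The list of Kunitz-type and carboxypeptidase inhibitors, further families of proteinase inhibitors, had 7 compared loci, of which 4 were at least 2-fold higher and 0 lower, with a median of 1.89. Of the 4, 3 were under 1 RPKM in RNAi leaf and passed the filter through OE leaf alone, and the median of all 11 loci of the list without the filter was 0.36. It ran from Solyc07g007240, at 12.27 RPKM in RNAi leaf and 8.17 RPKM in OE leaf, to Solyc07g007250, at 0 and 46.03 RPKM. Solyc03g020010 of this list lies beside the PI-II genes by identifier and stood near the floor in both libraries, at 0.33 and 0.67 RPKM. Of the 8 compared loci listed as wound-induced enzymes that act against insect feeding, 5 were at least 2-fold higher and 1 lower, with a median of 2.03, and 3 of the 5 passed the filter through OE leaf alone. These ran from Solyc08g074620, at 81.58 RPKM in RNAi leaf and 30.07 RPKM in OE leaf, to Solyc08g074630, at 6.66 and 187.29 RPKM.

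Other lists held loci for the steps upstream of PI-II induction. In the list of jasmonate synthesis, perception and systemin, 1 of 9 compared loci was at least 2-fold higher and 0 were lower, with a median of 0.15. The highest was Solyc05g051750, at 25.68 RPKM in RNAi leaf and 60.21 RPKM in OE leaf, and the lowest Solyc11g069800, at 20.65 and 19.4 RPKM. Among the JAZ repressors, 3 of 7 compared loci were at least 2-fold higher and 0 lower, with a median of 0.82, and 1 of the 3 passed the filter through OE leaf alone. Of all 12 JAZ loci listed, 5 were at 0 in both libraries, and the median of the 12 without the filter was 0.25. The compared JAZ loci ran from Solyc12g009220, at 3.5 RPKM in RNAi leaf and 3.97 RPKM in OE leaf, to Solyc11g011030, at 3.57 and 10.44 RPKM. Beside these medians, that of the 3 compared PI-II genes was 0.09. The 1 PI-II locus at 2-fold or more was Solyc03g020080, which passed the filter through OE leaf alone. With a level filter of 5 RPKM, the median was -0.15 for the PI-II genes left, Solyc03g020030 and Solyc03g020040. At that filter it was 0.15 for the jasmonate list and 0.78 for the JAZ list.

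**Figure D5:**
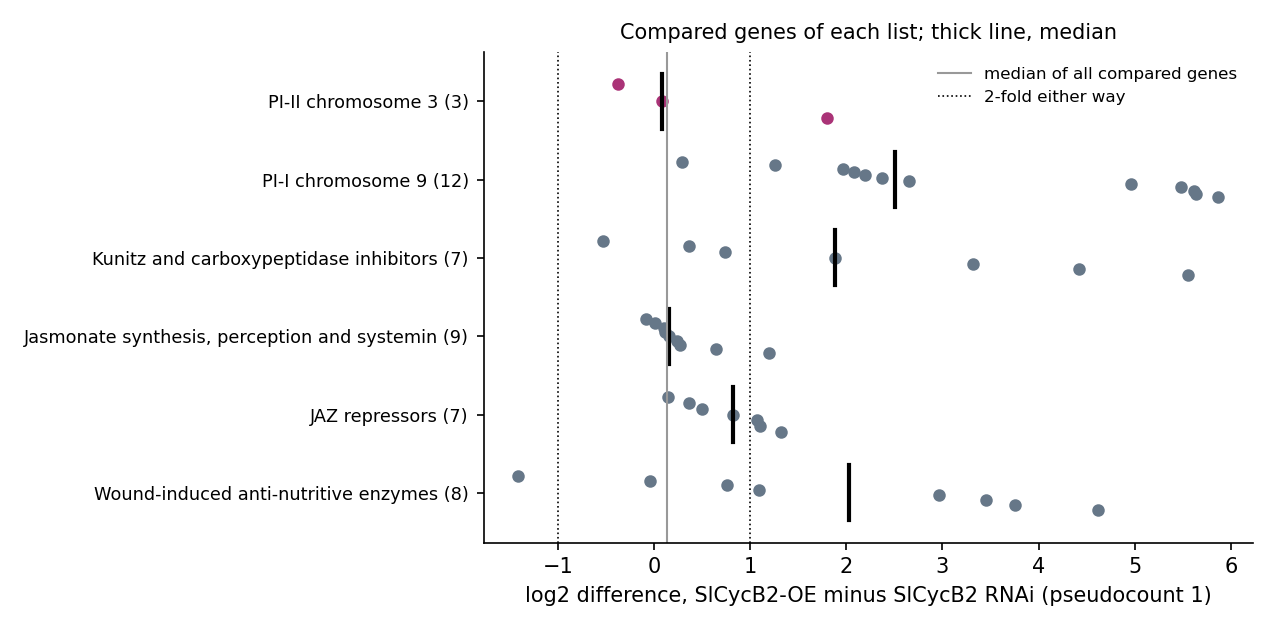
log2 difference, SlCycB2-OE minus SlCycB2 RNAi with a pseudocount of 1 (horizontal axis), of each gene whose mean RPKM reached 1 in the PI-II group and in 5 lists of wound-response loci (rows, number of genes in brackets), with the median of each list as a thick line and the median of all compared genes as a grey line. The PI-II genes lie at -0.38, 0.09 and 1.80, and the type I inhibitors between 0.30 and 5.86.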

How the data were processed

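RNA from leaf of 2 groups, with 1 library per group, was sequenced on an Illumina platform, per the labels' protocols. The deposited values are RPKM as calculated by the authors, per the file headers, and are rounded to 2 decimals. Per the submitters' processing notes, TopHat (an aligner for spliced reads) was among the tools. The build, gene models, counting step and strand setting are not given in the labels or file. Because RPKM is relative to the library's reads, a rise of abundant transcripts lowers the values of all others.

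The difference of a gene was log2(RPKM + 1) in OE leaf minus that in RNAi leaf. It is given for members above 0 in either library, whatever their mean level. Counts and medians over genes were taken among those whose mean RPKM reached 1, unless another filter or none is stated. A gene was counted as apart at 2-fold or more. For low genes this scale understates a difference. No test was possible. The relative worth of 1 read was scanned from 0.7 to 1.4 on 2589 genes that had 0.3 RPKM or more in each library and whose mean did not exceed 1.5. At the best value 28.0% of ratios lay within 0.01 (natural log) of a fraction of whole numbers up to 3, against a median of 3.90% over the scan. Named genes were the members, the 10 nearest identifiers on each side with any between, the extremes of each list, and the 2 compared genes nearest to the member with the highest mean. The identifiers that bound the runs described under other observations were chosen after their values were seen. The procedure was tested on simulated data. The members and lists were chosen with earlier results of these data known. Of the listed identifiers, 2 were not rows of the table used here. The alternatives were 8 changes of pseudocount, scaling, filter and limit. Python 3.11.15, numpy 2.4.6, pandas 2.3.3 and matplotlib 3.10.9 were used.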

Additional observations from a re-analysis of the deposited data

How the results depend on the processing

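Solyc03g020040 and Solyc03g020030 stayed within 2-fold under every alternative run, while the values of the low members moved with the pseudocount, whose choice sets them. With a pseudocount of 0.1 the log2 difference was 4.69 for Solyc03g020080 and 4.01 for Solyc03g020060, and with 5 it was 0.58 and 0.38. The count of compared PI-II genes at least 2-fold higher was 1; it was 2 without the level filter and 0 with a pseudocount of 5, with a level filter of 5 RPKM and with a 4-fold limit. The small positive difference of Solyc03g020030, which is also the median of the compared members, became -0.05 when centred on the median of all genes and -0.06 after scaling by a trimmed mean (leaving out 30% at either end of the ratios and 5% of the levels). With the level filter of 5 RPKM, which leaves 2 members, their median was -0.15. Centring lowers all ratios by 0.13, while the trimmed mean lowered that of Solyc03g020030 by 0.15 and left Solyc03g020080 at 1.75. The difference of Solyc03g020040 went from -0.38 to -0.51 when centred and to -0.53 after the trimmed mean. For all compared genes, counts higher and lower were 901 and 573 with a pseudocount of 0.1, 141 and 128 with 5, 222 and 155 with the level filter of 5 RPKM, where fewer genes enter, and 96 and 99 at a 4-fold limit. For the JAZ list, the count of 3 higher loci became 1 with a pseudocount of 5 and when centred, and 0 at a 4-fold limit. At that limit the 1 higher jasmonate locus and the 1 lower wound-induced enzyme both became 0. With the filter of 5 RPKM the higher wound-induced enzymes numbered 3. The median of the Kunitz and carboxypeptidase list was 0.36 without the filter and 3.15 with that of 5 RPKM, that of the type I list 4.96 with the filter of 5 RPKM and 4.05 with a pseudocount of 0.1, and that of the wound-induced enzymes was 3.13 with a pseudocount of 0.1 and 0.89 with 5. No paired analysis was possible because each group holds 1 library, and for the same reason no replicate could be left out.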

Other observations

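From Solyc03g020060 to Solyc03g020090, 4 neighbouring identifiers in a row had 0 in RNAi leaf and 0.35 to 2.49 RPKM in OE leaf. This run was noticed after its values were seen. On chromosomes with an assigned number, 3 runs of at least 4 neighbouring identifiers had this pattern in the whole table. The others were a run of 5 identifiers on chromosome 6, from Solyc06g052100 to Solyc06g052140, at 0.17 to 0.27 RPKM in OE leaf, and a run of 4 on chromosome 9, from Solyc09g037090 to Solyc09g037120, at 0.62 to 3.01 RPKM. The opposite pattern, at 0 in OE leaf and above 0 in RNAi leaf, gave 2 runs of 4, on chromosomes 1 and 7. Runs of this kind were thus few in either direction. Reads shared among neighbouring copies were not tested, since the table holds no sequences.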
